A study of Mus musculus with 6 samples.

Results

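Gene expression was compared between mouse embryos homozygous and heterozygous for an altered Stat3 allele, STAT3-K177K180R. The comparison takes the 2 arrays titled as homozygous and the 2 titled as heterozygous, 4 of the 6 arrays of the study, and fits these 4 alone. The titles and the tissue field give an embryo for each array, all 12 days old, although the extraction protocol speaks of tumor tissue; the titles were followed. Homozygous embryos carry the altered allele on both copies of Stat3 and heterozygous embryos on 1 copy, so both groups carry it. The remaining 2 arrays are of wild-type embryos of the same age, and they are given only as values beside the comparison. Per the labels, embryos of all genotypes shared a womb, although no litter is given for any single embryo. The labels name no strain and no tissue-specific promoter or Cre. The study title ties the allele to secretion of STAT3 and to abnormal development.

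STAT3 is a transcription factor that waits in the cytoplasm in a latent form. Cytokines of the interleukin-6 family bind receptors that share the subunit gp130, JAK kinases then phosphorylate STAT3, and the paired protein enters the nucleus and binds DNA. In liver it drives the acute-phase genes, whose products are secreted into blood during inflammation, and it also induces its own inhibitors of the SOCS family. The name of the allele gives arginine in place of lysine at both altered residues.

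Total RNA was amplified, labelled with Cy3 and hybridised to 1-colour Agilent mouse arrays. Between 70.7% and 77.3% of the gene probes were well above background on the 4 arrays. Signal at the 75th percentile was 860.3 and 785.2 on the homozygous arrays and 1187 and 1263 on the heterozygous arrays, and the negative control spots had medians of 43.5 and 48 against 27 and 26. Both homozygous arrays lay on 1 slide, while both heterozygous and both wild-type arrays lay on another, so slide and genotype cannot be told apart in any result here. Signals of the homozygous pair correlated at 0.9889 across genes and those of the heterozygous pair at 0.9955, which describes these arrays only, since genes are not replicates. Homozygous replicate 2 read -0.53 for Xist, the RNA that coats the inactive X chromosome, while the other 3 arrays read -8.50 or less, and it lacked the Y-linked Ddx3y (-8.04 against 0.00 to 0.31). It thus read as female and the other 3 as male, and its part in the differences below was not tested beyond leaving it out. The labels speak of 2 independent experiments per group without naming parents, so p-values measure only the spread between these samples, and having only 2 arrays per genotype limits how precise any value is.

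Homozygous embryos differed from heterozygous embryos at 3293 of 24076 genes tested, or 13.7%, by limma's moderated test at a Benjamini-Hochberg adjusted p below 0.05. Of these, 1165 (4.84% of the genes tested) were higher and 2128 (8.84%) were lower in homozygous embryos, so 35.4% of the called genes were higher. Among the 22107 genes well above background on all 4 arrays, 318 called genes were lower at least 4-fold and 17 were higher at least 4-fold. The median difference over all genes was 0.08 on the log2 scale, on which every difference below is given as homozygous minus heterozygous, with its standard error and n = 2 per genotype. Both homozygous arrays lay beyond both heterozygous arrays at 64.2% of 24040 genes with a value on every array, 36.1% above and 28.1% below. Genes without a symbol in the annotation were called lower at 15.7% and those with a symbol at 5.89%, so many of the falls have no gene name. The split of directions turned with the background correction: after the normexp correction with the same percentile, 8170 genes were called, 71.6% of them higher, and the median over all genes moved up by 0.16. Of 1326 olfactory and vomeronasal receptor genes on the array, the sensors of odours and pheromones, 271 were bright enough to test. Of these, 13.3% were called higher and 10.3% lower, both above the shares of all genes. Of the 271, 38 were not well above background on either homozygous array and 11 on neither heterozygous array. Those passed the filter through the brighter genotype alone.

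**Figure D1:**
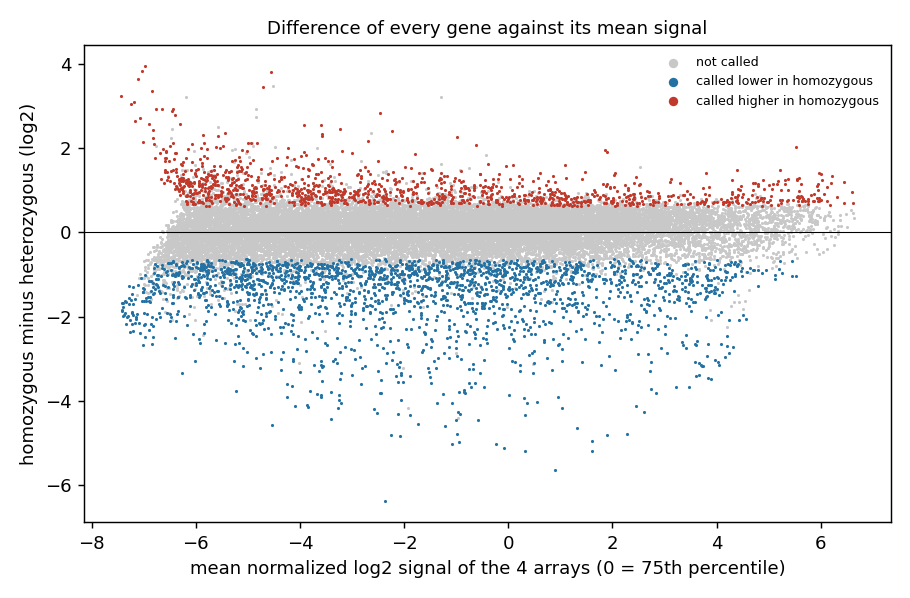
Each point is 1 of 24076 genes, with the mean normalized log2 signal of the 4 arrays on the horizontal axis and the homozygous minus heterozygous difference (log2) on the vertical axis; red and blue mark genes called higher and lower. The 2128 genes called lower reach further from 0 than the 1165 called higher, and both kinds occur across the whole range of signal.

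The count of called genes rested on the spread within 4 arrays. Leaving out 1 array left its genotype with a single embryo, which was then assumed to vary like the other genotype. In this way 6116 genes were called without homozygous replicate 1 and 4753 without homozygous replicate 2, which leaves 3 male embryos. Without heterozygous replicate 1 or heterozygous replicate 2 there were 922 and 1263. The homozygous pair differed more from each other (median absolute difference 0.24) than the heterozygous pair did (0.17). For the gene lists described below, calls are given in these 4 fits too. For some lists they are given in 1 direction only, which does not mean that the other direction had no calls. Testing the brightest probe of each gene with no filter on dim probes called 1871 of 32450 genes.

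Genes well above background on all 4 arrays were ranked if called and if both homozygous embryos lay beyond both heterozygous embryos. Genes without a symbol were passed over, as were clone, predicted or numbered loci and olfactory or vomeronasal receptors. The largest rise among the genes ranked was that of Saa3, a serum amyloid A protein made in inflammation. Its normalized log2 signal, where 0 is the array's 75th percentile, was -3.43 and -1.85 in the homozygous embryos and -6.37 and -6.54 in the heterozygous embryos. Both homozygous embryos stood apart from both heterozygous embryos, as the ranking required, and replicate 2 was the higher of the homozygous pair. The difference was 3.82 ± 0.49 (adjusted p = 0.00946), a 14.1-fold rise, and wild-type embryos read -7.02 and -6.81, not well above background. After normexp correction it was 1.97 with the 75th percentile and 1.66 with quantile normalization, still called.

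Membrane proteins and enzymes followed Saa3. Tmem266, a membrane protein with a voltage-sensing domain, read -1.02 and -1.05 in the homozygous embryos and -3.28 and -3.61 in the heterozygous embryos and rose by 2.41 ± 0.18 (adjusted p = 0.00308). The alpha-adrenergic receptor gene Adra2b read 0.29 and 0.01 in the homozygous embryos and -2.02 and -2.19 in the heterozygous embryos and rose by 2.26 ± 0.18 (adjusted p = 0.00333). Ly6a, which codes for the stem cell surface antigen Sca-1 and is induced by interferon, read -2.57 and -2.30 against -4.81 and -4.63 and rose by 2.28 ± 0.18 (adjusted p = 0.00329). In all of these both homozygous embryos were above both heterozygous embryos by far more than either pair differed. Xdh, the xanthine dehydrogenase that makes uric acid from purines, read -3.63 and -4.22 against -6.12 and -5.99 and rose by 2.13 ± 0.23 (adjusted p = 0.00662). The ribosomal protein gene Rps14, one of the brightest on the arrays, read 6.52 and 6.56 in the homozygous embryos and 4.08 and 4.93 in the heterozygous embryos and rose by 2.04 ± 0.29 (adjusted p = 0.0123). The heterozygous pair was the more spread here, and both wild-type values, 5.14 and 4.64, lay below the homozygous pair. Mfsd4b5, a transporter-like gene, rose by 2.46 ± 0.22 (adjusted p = 0.00408), and Nop9, an RNA-binding protein of the nucleolus, by 1.96 ± 0.17 (adjusted p = 0.00404). Tmem72 rose by 2.54 ± 0.47 (adjusted p = 0.0238) and the zinc finger gene Zfp422 by 1.97 ± 0.44 (adjusted p = 0.04). The last of these was lost without heterozygous replicate 1 or 2 (adjusted p = 0.111 and 0.0698) and was 1.27 without homozygous replicate 1, and Tmem72 was lost without heterozygous replicate 2 (adjusted p = 0.054). Normexp with quantile normalization lowered the dim rises, to 0.72 for Xdh and 0.58 for Nop9, both still called.

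Among the genes ranked in this way, the largest falls exceeded the largest rises. Coagulation factor X (F10) read 1.49 and -1.71 in the homozygous embryos and 4.95 and 4.40 in the heterozygous embryos, so both homozygous embryos were far below but differed from each other by over 3 log2 units. It fell by 4.78 ± 0.97 (adjusted p = 0.0307), and by 3.18 without homozygous replicate 2, while the call was lost without heterozygous replicate 1 (adjusted p = 0.0665). Notch1, a receptor for signals between neighbouring cells, read -2.65 and -3.52 in the homozygous embryos and 1.61 and 0.74 in the heterozygous embryos and fell by 4.26 ± 0.39 (adjusted p = 0.00433). Chat, which makes acetylcholine in motor neurons, read -3.33 and -4.77 in the homozygous embryos and 0.76 and -0.19 in the heterozygous embryos and fell by 4.34 ± 0.53 (adjusted p = 0.00824). In both genes every homozygous value lay over 3 log2 units below every heterozygous value, and the wild-type values, 1.34 and 1.43 for Notch1 and 0.54 and 0.53 for Chat, lay within the heterozygous range.

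Trpm1, a cation channel of melanocytes and retinal bipolar cells, read -2.28 and -3.34 against 2.05 and 1.25 in homozygous against heterozygous embryos and fell by 4.46 ± 0.42 (adjusted p = 0.00458). Slfn9, of the Schlafen family, read -2.48 and -3.95 against 1.33 and 1.12 and fell by 4.45 ± 0.46 (adjusted p = 0.00558). Slc16a7, a transporter of lactate and pyruvate, read -4.19 and -5.15 against -0.07 and -0.88 and fell by 4.19 ± 0.40 (adjusted p = 0.00468). The homozygous values of these genes were below all heterozygous and wild-type values, as the plot of the largest changes shows for each embryo. The zinc finger gene Zfp345 fell by 4.05 ± 0.30 (adjusted p = 0.00308), Llph by 3.86 ± 0.65 (adjusted p = 0.0192) and Iqcf4 by 3.84 ± 0.25 (adjusted p = 0.00282). Iqcf4, Chat, Slc16a7 and Zfp345 each had 1 kept probe, so none of these 4 falls has a second probe beside it. The same holds for every rise named above except Zfp422, and for Fkbp11, Crebbp and Il11 below.

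**Figure D2:**
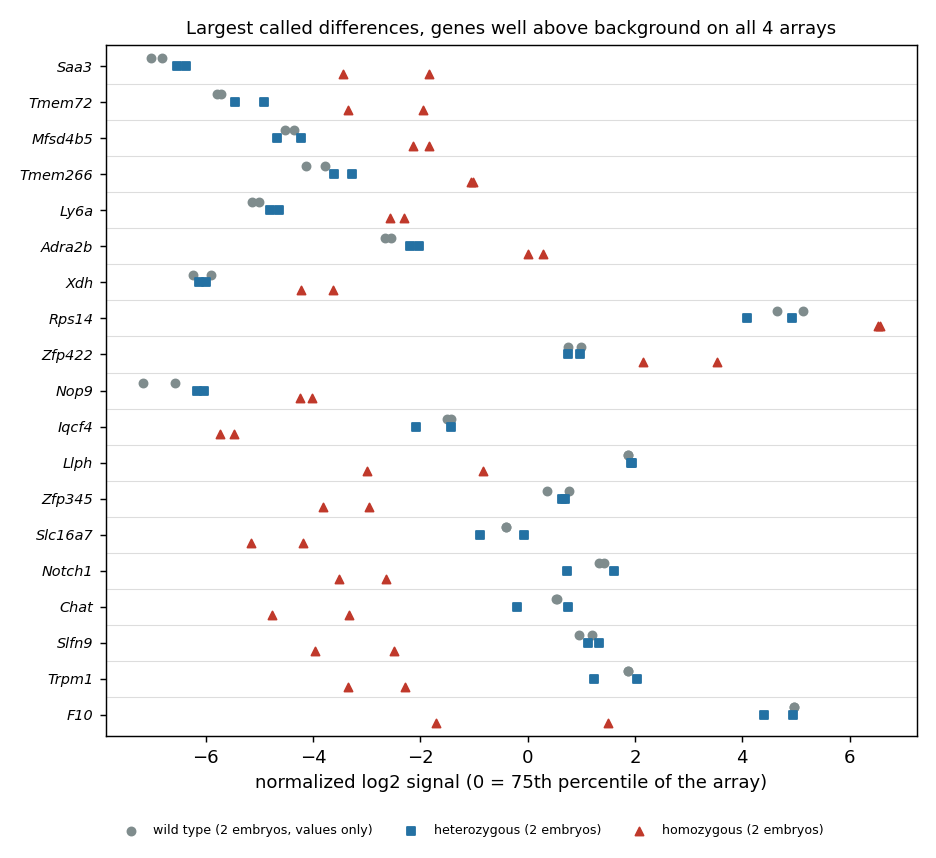
Normalized log2 signal (horizontal axis, 0 = 75th percentile of the array), with a point for each embryo: homozygous (triangles), heterozygous (squares) and wild type (circles, values only). Shown are the 10 largest rises and 9 of the 10 largest falls among ranked genes well above background on all 4 arrays. Genes without a symbol and clone, predicted, numbered and receptor loci were not ranked. Every homozygous point lies beyond every heterozygous point because genes were ranked only if this held. Wild-type and heterozygous points lie near each other.

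Some genes were well above background in only 1 of the genotypes, so their differences are bounds. The bound compares the mean of the brighter genotype with a floor for the dimmer one. On each array this floor is the dimmest signal of any probe well above background, or the gene's own signal if that is brighter. Ccdc172, a coiled-coil protein, read -7.10 and -7.12 in the homozygous embryos and -2.83 and -3.87 in the heterozygous embryos, where no homozygous value was well above background, and was at least 6.88-fold lower. Gabbr2, a subunit of the GABA-B receptor, read -6.09 and -6.23 against -2.79 and -3.74 and was at least 6.78-fold lower, although its other probes differed by -0.64 and -0.28 without passing. Fam240b, the lens transcription factor gene Foxe3 and the brain extracellular matrix gene Hapln2 were lower by bounds of only 1.32-, 1.31- and 1.03-fold, and after normexp with the 75th percentile they read 0.14, 0.19 and 0.20 higher. In the other direction Crnn, an epidermal protein of the cornulin family, read -4.74 and -5.55 against -7.30 and -6.97 and was at least 3.05-fold higher. Sbspon was at least 2.78-fold higher, Gsdma3, a gasdermin of skin, 2.42-fold, the hair keratin-associated gene Krtap31-1 2.07-fold and Morn3 2.01-fold. The calls of all 5 were lost after normexp with quantile normalization, with adjusted p from 0.0503 to 0.238. In all, 856 genes tested were not well above background on either homozygous array, and 252 of them were called lower. On neither heterozygous array were 86 genes well above background, and 77 of them were called higher. All of these passed the filter through the brighter genotype alone, which favours that direction in advance.

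A gene with several probes allows the same difference to be read more than once. Among 4380 genes with at least 2 kept probes, the differences of the 2 brightest correlated at 0.124 across genes and had the same sign in 54.9%, which is a description over genes that share arrays. Of the 876 with any probe called, 8 had every probe higher, 29 had every probe lower and 25 had probes called in opposite directions. With each of 29558 kept probes tested by limma, 12.6% were called, 3.97% higher and 8.59% lower. The array thus often gave 1 called and 1 uncalled reading for the same gene, as the plot of probe pairs shows.

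**Figure D3:**
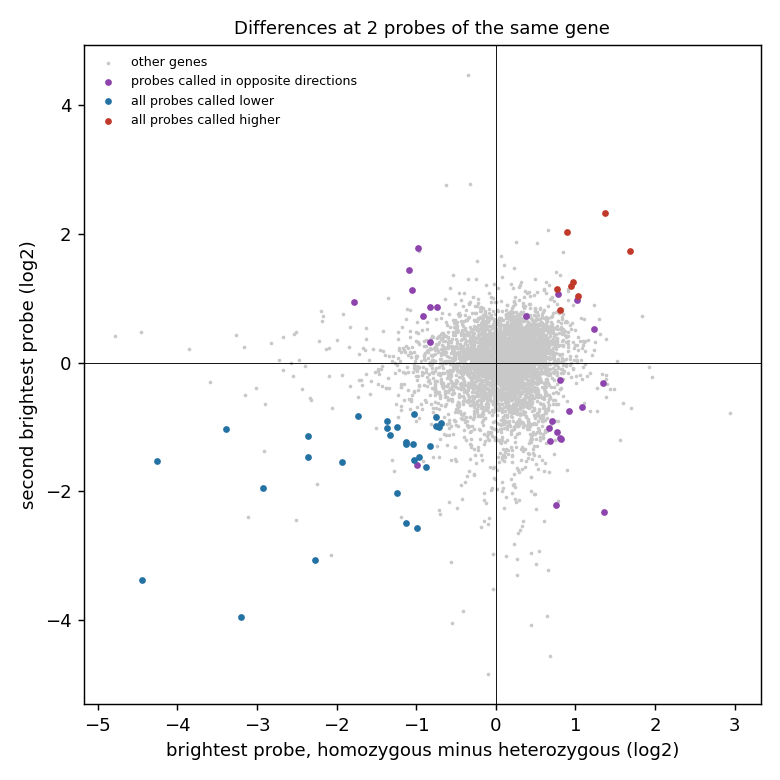
Homozygous minus heterozygous difference (log2) at the brightest probe (horizontal axis) and the second brightest probe (vertical axis) of 4380 genes with at least 2 kept probes. Many points with a large fall at 1 probe lie near 0 at the other; the 29 genes with every probe lower are blue, the 8 with every probe higher red, and the 25 with probes called in opposite directions, which may include a probe not plotted, purple.

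The genes with every probe changed were led by falls. Slfn9 read -4.41 and -4.65 against -1.02 and -1.30 at its second probe, a fall of 3.37 (adjusted p with every probe tested = 0.00215). Acyp1, an acylphosphatase, fell by 3.20 at its brighter probe and by 3.95 at the other. The dimmer probe of Notch1 read -6.33 and -6.24 against -4.84 and -4.66, was not well above background on either homozygous array and was at least 2.61-fold lower (adjusted p = 0.00654). Both probes of these genes read lower in both homozygous embryos than in both heterozygous embryos. Ylpm1, a nuclear protein, fell by 2.27 and 3.07, Mapkap1, the Sin1 subunit of the kinase complex mTORC2, by 3.39 and 1.04, and the zinc finger gene Zfp931 by 2.36 and 1.47.

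Fewer genes rose at every probe. Tuba3a, an alpha-tubulin best known from testis, rose by 1.37 and 2.32. Gsx2, a homeobox gene of ventral forebrain progenitors, rose by 1.69 and 1.73, the latter fitted on 3 arrays because homozygous replicate 2 had an outlier spot, so that its single homozygous value was assumed to vary like the heterozygous pair. Usf3 rose by 0.89 at its brighter probe, and its other probe, well above background on only 1 heterozygous array, read -5.17 and -5.46 against -8.08 and -6.61. Itih4, a heavy chain of the inter-alpha-trypsin inhibitor family, rose by 0.97 and 1.24, and Irgm1, an interferon-induced GTPase, by 1.03 and 1.03. Ran, the GTPase of nuclear transport, rose by 0.77 and 1.15. The calls of Usf3, Itih4, Irgm1 and Ran at the brighter probe were lost without heterozygous replicate 1 (adjusted p = 0.134, 0.208, 0.201 and 0.201) and without heterozygous replicate 2 (0.145, 0.0699, 0.0783 and 0.176).

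Several of the largest changes were read differently by another probe of the same gene. F10 differed by 0.41 at its second probe, Trpm1 by 0.47, Llph by 0.21 and Zfp422 by -0.23, with none called and each opposite in sign to the brighter probe. These 4 examples of discordant probes were picked with their values known. Which part of each transcript the probes bind was not tested, so a fall at 1 probe is not a fall of every transcript of the gene.

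Stat3 mRNA itself was not called different. Its brighter probe read 1.38 and 1.09 in the homozygous embryos and 1.07 and 0.82 in the heterozygous embryos, so the groups did not overlap but the gap between them was small, and the difference was 0.30 ± 0.19 (adjusted p = 0.312). Wild-type embryos read 0.81 and 0.81. The dimmer probe read -4.82 and -3.52 against -4.35 and -4.29 and differed by 0.15 (adjusted p = 0.82), with the homozygous pair on both sides of the heterozygous pair. The allele alters residues and not the amount of transcript by design, so this reading cannot check the genotype labels.

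Genes around STAT3 were called no more often than all genes, at 4.76% to 13.3% of the 4 lists below beside 13.7%. Of 9 ligands that signal through STAT3 and were bright enough to test, 1 was higher and 0 lower. This was Il11, an interleukin-6 family cytokine, at -2.04 and -2.18 in the homozygous embryos and -3.48 and -3.72 in the heterozygous embryos, a rise of 1.49 ± 0.17 (adjusted p = 0.00733) with the pairs far apart. Of 21 receptors, JAK kinases and other STATs, 0 were higher and 1 lower: Il6ra, the binding subunit of the interleukin-6 receptor, at -2.15 and -2.63 in the homozygous embryos and -1.34 and -1.41 in the heterozygous embryos, a fall of 1.02 ± 0.21 (adjusted p = 0.0321). Among 18 enzymes that modify STAT3, Crebbp, an acetyltransferase, read -1.05 and -1.10 in the homozygous embryos and 0.81 and 0.63 in the heterozygous embryos and fell by 1.80 ± 0.16 (adjusted p = 0.00408), while Hdac1, a deacetylase, rose by 0.74 ± 0.17 (adjusted p = 0.0424). The other probes of Hdac1 differed by 0.54 and -0.41 without passing. Without homozygous replicate 1, homozygous replicate 2, heterozygous replicate 1 and heterozygous replicate 2, calls higher numbered 1, 2, 1 and 1 for ligands, 1, 2, 0 and 0 for receptors and kinases and 1, 3, 0 and 0 for regulators, and calls lower 1, 2, 0 and 0, 3, 2, 0 and 0 and 2, 1, 1 and 1. The median difference was -0.03 for ligands, 0.25 for receptors and kinases and 0.01 for regulators, beside 0.08 for all genes.

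Of 30 known STAT3 targets and feedback inhibitors, 2 were higher, 2 lower and 26 did not pass, with a median of 0.21. Birc5, named after its values were seen, was among these 26, with a difference of 0.40 at its brightest probe. Its other probes differed by -1.42, called lower with every probe tested (adjusted p = 0.0247), and by 0.37, not called. Fgl1, a hepatocyte-secreted fibrinogen-like protein, read -4.33 and -4.04 against -5.12 and -5.06 in homozygous against heterozygous embryos and rose by 0.90 ± 0.18 (adjusted p = 0.0277), or 0.41 and no call after normexp with quantile normalization. Socs1, a feedback inhibitor of JAK kinases, read -0.17 and -0.32 against -0.90 and -1.31 and rose by 0.86 ± 0.20 (adjusted p = 0.0451). Twist1, a transcription factor of head and limb mesenchyme, read 0.93 and 0.99 against 2.18 and 1.96 and fell by 1.11 ± 0.17 (adjusted p = 0.0139). Junb, part of the AP-1 complex, was not well above background in homozygous embryos and was at least 1.43-fold lower, but differed by 0.40 after normexp with the 75th percentile. Socs3, the feedback gene best known for STAT3 and named after its values were seen, read 1.42 and 0.89 in the homozygous embryos and 1.53 and 1.54 in the heterozygous embryos and differed by -0.38 ± 0.22 (adjusted p = 0.272). Its homozygous values lay below the heterozygous pair, and without homozygous replicate 1 the difference was -0.64 (adjusted p = 0.0394). Calls of targets numbered 4, 3, 0 and 0 higher and 4, 2, 0 and 0 lower without homozygous replicate 1, homozygous replicate 2, heterozygous replicate 1 and heterozygous replicate 2.

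Acute-phase protein genes were the list with the highest median. Of 30 members, 26 were bright enough to test, all but Orm1, Orm2, Orm3 and Steap4, and 10 of these were higher, 0 lower and 16 did not pass, beside 4.84% of all genes higher. The median difference was 0.98, and in 23 of the 26 both homozygous embryos lay above both heterozygous embryos, beside 36.1% of all genes. Beside Saa3, Lcn2, the iron-binding lipocalin of neutrophils and liver, read -0.55 and 0.19 in the homozygous embryos and -1.61 and -1.69 in the heterozygous embryos and rose by 1.47 ± 0.27 (adjusted p = 0.0233). Haptoglobin (Hp), which binds free haemoglobin, read 0.11 and -0.33 in the homozygous embryos and -1.38 and -1.07 in the heterozygous embryos and rose by 1.11 ± 0.22 (adjusted p = 0.0293). The metal-binding metallothionein gene Mt2 read 6.25 and 5.91 against 4.99 and 5.20 and rose by 0.99 ± 0.19 (adjusted p = 0.0276), a call lost with quantile normalization (adjusted p = 0.0784). Pairs of these genes were separate by more than either pair was spread. The other genes called were Itih4, Lrg1, Cp, Itih3, Fgg and Hamp, with rises from 0.68 to 1.34. Calls higher numbered 20, 17, 1 and 7 without homozygous replicate 1, homozygous replicate 2, heterozygous replicate 1 and heterozygous replicate 2, and 1 with no filter on dim probes, while the median lay between 0.70 and 1.23 in the 4 leave-one-out fits.

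Some members split the homozygous pair, and these were named after their values were seen. Serpina3n, an acute-phase protease inhibitor, read -4.58 and -0.96 in the homozygous embryos and -6.15 and -6.34 in the heterozygous embryos. Both homozygous values were above the heterozygous pair, but they lay over 3 log2 units apart, so the difference of 3.47 ± 1.07 (adjusted p = 0.0855) did not pass. Apcs, the serum amyloid P component, read -1.35 and -5.61 in the homozygous embryos and -6.14 and -6.29 in the heterozygous embryos, with only homozygous replicate 1 far above the others and 1 homozygous value not well above background, and differed by 2.73 ± 1.26 (adjusted p = 0.191). Serpina3n was thus higher in homozygous replicate 2 and Apcs in replicate 1. Saa2, a relative of Saa3, read -5.58 and -5.27 against -4.75 and -4.80 and differed by -0.64 ± 0.18 (adjusted p = 0.0661), with all homozygous values below the heterozygous values, but by 0.14 after normexp with the 75th percentile.

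**Figure D4:**
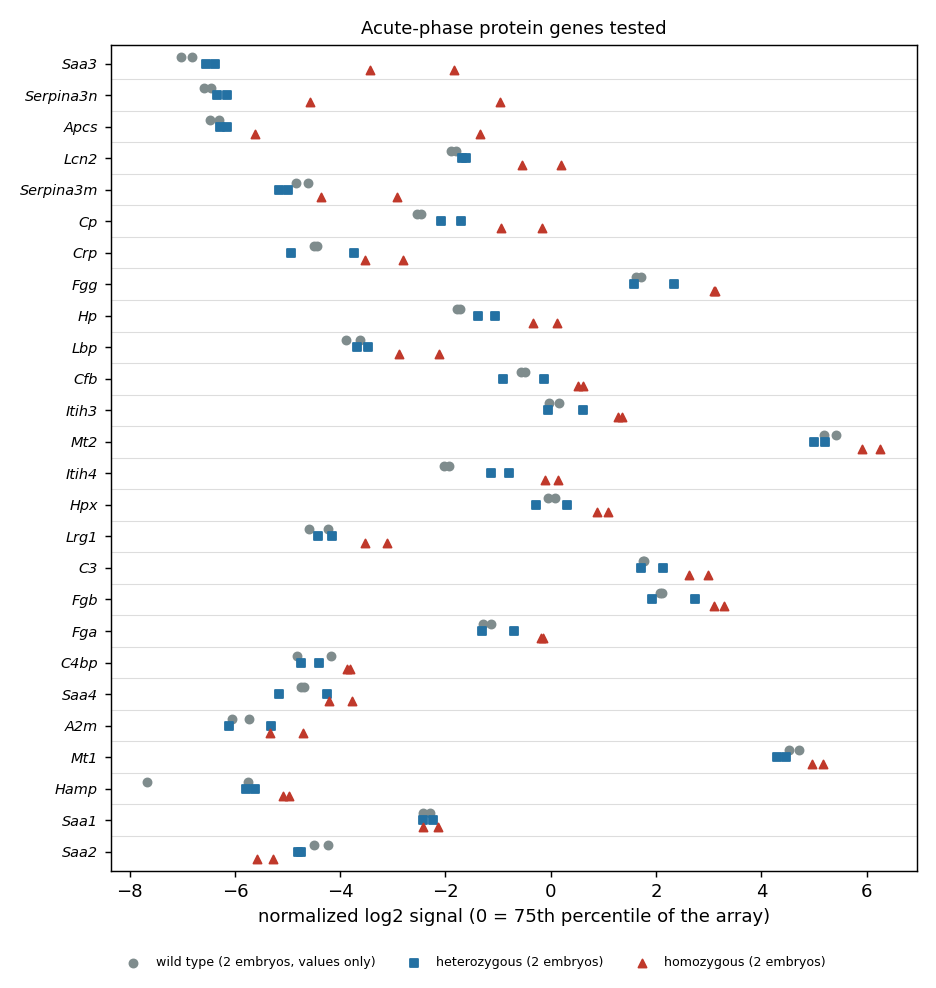
Normalized log2 signal (horizontal axis, 0 = 75th percentile of the array) of the 26 acute-phase genes tested, ordered by difference, with a point for each homozygous (triangles), heterozygous (squares) and wild-type (circles) embryo. Homozygous points lie to the right of heterozygous points in 23 genes, and the points of Serpina3n and Apcs are far apart within the homozygous pair.

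STAT dimers bind the palindrome TTCNNNGAA, so the promoters of the acute-phase genes called higher were searched for it. The motif reads the same on both strands. RefSeq promoters of build GRCm38.p6, 250 bases before to 50 after each gene's start, held it in 8.3% of 32851 promoters. By gene, 9.55% of 27025 held it in at least 1 promoter. Promoters were given for 21 of the 26 acute-phase genes, of which 5 held it, and for 9 of the 10 called higher, of which 2 held it. These are shown from 250 bases upstream to the start, to place the sites beside the rises of Hamp, the iron hormone hepcidin, and Itih4. Capitals mark the motif. Hamp lies at chr7:30944030-30944279 on the minus strand, with its site beginning 97 bases before the start, and Itih4 at chr14:30886226-30886475 on the plus strand, with its site 51 bases before the start.
Hamp: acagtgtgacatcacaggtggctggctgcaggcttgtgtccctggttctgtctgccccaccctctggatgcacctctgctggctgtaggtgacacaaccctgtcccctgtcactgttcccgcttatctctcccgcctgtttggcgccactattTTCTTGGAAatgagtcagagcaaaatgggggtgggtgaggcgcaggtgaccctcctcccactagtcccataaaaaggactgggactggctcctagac
Itih4: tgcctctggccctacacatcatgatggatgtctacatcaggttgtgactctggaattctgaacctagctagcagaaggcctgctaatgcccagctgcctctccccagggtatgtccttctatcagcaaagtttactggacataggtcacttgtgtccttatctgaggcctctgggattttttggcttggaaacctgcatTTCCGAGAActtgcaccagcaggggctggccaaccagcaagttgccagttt
A match is a description of the letters and not of binding. Hamp, with TTCTTGGAA, read -5.08 and -4.96 against -5.78 and -5.62 in homozygous against heterozygous embryos, a rise of 0.68 ± 0.16 (adjusted p = 0.048) that was lost without homozygous replicate 2 (adjusted p = 0.0588), without heterozygous replicate 1 (0.327), without heterozygous replicate 2 (0.181) and in 1 fit of all 6 arrays (0.388). Itih4, with TTCCGAGAA, read 0.15 and -0.11 against -1.13 and -0.78, with separate pairs and wild-type values of -2.04 and -1.93 below both.

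The liver makes most acute-phase proteins, so its other secreted products were listed beside them. Of 25 hepatocyte genes, 1 was higher and 0 lower, or 4% called beside 13.7% of all genes, with a median of 0.58. The gene called was Afp, the main serum protein of fetal liver and yolk sac, at 6.27 and 6.15 in the homozygous embryos and 5.46 and 5.49 in the heterozygous embryos, a rise of 0.73 ± 0.16 (adjusted p = 0.035). This call was lost with quantile normalization (0.36, adjusted p = 0.172) and with the authors' deposited values (0.36, adjusted p = 0.165). The mean signal of the list was 1.99 and 1.76 in homozygous, 1.23 and 1.62 in heterozygous and 1.46 and 1.43 in wild-type embryos, so homozygous embryos were higher than both other genotypes. Its part in the acute-phase rises was not tested, and in RNA of an embryo in bulk more cells of a type and more RNA per cell cannot be told apart. Calls of hepatocyte genes higher numbered 1, 6, 0 and 1 without homozygous replicate 1, homozygous replicate 2, heterozygous replicate 1 and heterozygous replicate 2.

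Complement and coagulation genes, many of them also made in liver, were called about as often as all genes. Of 28 tested, 1 was higher, 3 lower and 24 did not pass, which is 14.3% called beside 13.7% of all genes, with a median of 0.22. C2, a complement protease, read -0.61 and -0.76 against -1.64 and -1.33 in homozygous against heterozygous embryos and rose by 0.80 ± 0.18 (adjusted p = 0.0428). Beside F10, coagulation factor VIII (F8) read -5.05 and -4.93 against -4.25 and -3.94 and fell by 0.89 ± 0.18 (adjusted p = 0.0306), and factor V (F5) read -4.25 and -3.94 against -3.18 and -2.64 and fell by 1.18 ± 0.24 (adjusted p = 0.0306). Both were dim, and after normexp with the 75th percentile F8 differed by -0.06 and was no longer called, while the second probe of F5 differed by 0.56. The median was 0.39 without homozygous replicate 2, and calls lower numbered 3, 3, 1 and 1 without homozygous replicate 1, homozygous replicate 2, heterozygous replicate 1 and heterozygous replicate 2.

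Interferon-response genes were higher more often than all genes were. Of 29 tested, 7 were higher, 0 lower and 22 did not pass, or 24.1% higher beside 4.84% of all genes. The median was 0.78. Bst2, which tethers viruses to the cell surface, read -0.12 and -0.07 in the homozygous embryos and -1.26 and -1.19 in the heterozygous embryos and rose by 1.13 ± 0.15 (adjusted p = 0.0107). The GTPase gene Gbp2 read -1.79 and -2.27 against -3.42 and -3.00 and rose by 1.18 ± 0.24 (adjusted p = 0.0317). Irgm1, called at both probes, read -0.35 and -0.81 against -1.77 and -1.46, and Ifi35 read -2.81 and -2.97 against -3.97 and -3.57 and rose by 0.88 ± 0.20 (adjusted p = 0.0414), lost with quantile normalization (adjusted p = 0.0502). Each pair was apart from the other, with homozygous replicate 1 above replicate 2 in Gbp2, Irgm1 and Ifi35. Isg15, a ubiquitin-like protein strongly induced by interferon and named after its values were seen, read 1.42 and -0.46 in the homozygous embryos and -1.30 and -1.41 in the heterozygous embryos. Both homozygous values exceeded the heterozygous pair but lay far apart, and the difference of 1.84 ± 0.57 (adjusted p = 0.0867) did not pass. The list's median was 0.43 without homozygous replicate 1 and 1.06 without homozygous replicate 2. Calls higher numbered 9, 21, 0 and 0 without homozygous replicate 1, homozygous replicate 2, heterozygous replicate 1 and heterozygous replicate 2.

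Markers of immune cells were also examined, since these cells hold many of the same transcripts. Of 18 neutrophil genes, 3 were higher and 0 lower, or 16.7% called beside 13.7% of all genes, with a median of 0.66. One was Lcn2, which the acute-phase list holds too. Elane, the elastase of neutrophil granules, read 1.61 and 1.12 in the homozygous embryos and -0.05 and 0.35 in the heterozygous embryos and rose by 1.22 ± 0.24 (adjusted p = 0.029). Chil3, a chitinase-like protein of myeloid cells, read -3.48 and -4.61 against -6.26 and -5.70 and rose by 1.94 ± 0.40 (adjusted p = 0.0324), but after normexp with quantile normalization by 0.66 (adjusted p = 0.117). The mean signal of the neutrophil list was -0.83 and -1.16 in homozygous, -1.83 and -1.56 in heterozygous and -1.99 and -1.91 in wild-type embryos. Its part in the rises of acute-phase and interferon genes was not tested. Without homozygous replicate 1 the neutrophil median was 0.38, and calls higher numbered 4, 11, 0 and 2 without homozygous replicate 1, homozygous replicate 2, heterozygous replicate 1 and heterozygous replicate 2.

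Of 19 macrophage genes, 1 was higher and 1 lower, or 10.5% called beside 13.7% of all genes, with a median of 0.23. Mpeg1, a pore-forming protein of phagocytes, rose by 0.80 ± 0.18 (adjusted p = 0.0406), while the lysozyme gene Lyz1 read -0.03 and -1.66 against 1.30 and 1.61 and fell by 2.31 ± 0.51 (adjusted p = 0.0391), or by 1.49 without homozygous replicate 2, and was lost with quantile normalization (adjusted p = 0.0521). Both calls were lost without heterozygous replicate 1 and heterozygous replicate 2, in which 0 macrophage genes were higher and 0 lower. Of 20 chemokine and cytokine genes, 2 were higher and 0 lower, or 10% called beside 13.7% of all genes. Cxcl12, a chemokine that guides migrating cells, read 2.53 and 2.56 against 1.76 and 1.66 and rose by 0.84 ± 0.15 (adjusted p = 0.0245). Il1rn, the antagonist of the interleukin-1 receptor, was not well above background in heterozygous embryos and was at least 2.03-fold higher, a call lost after normexp with quantile normalization (adjusted p = 0.0872). Calls of chemokine and cytokine genes higher numbered 4, 5, 1 and 1 and lower 2, 0, 0 and 0 without homozygous replicate 1, homozygous replicate 2, heterozygous replicate 1 and heterozygous replicate 2.

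Genes for protein folding were called at 21.9% of endoplasmic reticulum and 5.26% of heat shock genes, beside 13.7% of all genes. Of 32 genes for chaperones of the endoplasmic reticulum and the unfolded protein response, 6 were higher and 1 lower, with a median of 0.35. Hsp90b1, the endoplasmic reticulum form of HSP90, read 4.97 and 4.94 in the homozygous embryos and 3.98 and 3.92 in the heterozygous embryos and rose by 1.01 ± 0.15 (adjusted p = 0.0145). Pdia6, a protein disulfide isomerase, read 5.14 and 5.09 against 4.27 and 4.19 and rose by 0.89 ± 0.15 (adjusted p = 0.0207), with its second probe at 0.05. Ppp1r15a, the stress-induced phosphatase subunit that restores translation, read 2.95 and 2.54 in the homozygous embryos and 1.22 and 1.48 in the heterozygous embryos and rose by 1.40 ± 0.21 (adjusted p = 0.0138). In all of these the pairs were separate, and wild-type values lay below the homozygous pair. Fkbp11, a prolyl isomerase of secretory cells, read -5.34 and -5.77 in the homozygous embryos and 0.79 and 0.83 in the heterozygous embryos and fell by 6.37 ± 0.20 (adjusted p = 0.002), with 1 of its homozygous values not well above background. Among 19 heat shock genes, only Hsp90ab1, the constitutive cytosolic HSP90, was called at its brightest probe. It read 6.22 and 6.17 against 5.10 and 4.97 and rose by 1.16 ± 0.16 (adjusted p = 0.0105). At the second brightest kept probe, 0 were higher and 2 lower of 5 heat shock genes, with a median of 0.22. Of 5 endoplasmic reticulum genes at that probe, 0 were higher and 0 lower, with a median of 0.05. Calls higher numbered 7, 6, 0 and 1 for endoplasmic reticulum and 4, 2, 0 and 0 for heat shock genes without homozygous replicate 1, homozygous replicate 2, heterozygous replicate 1 and heterozygous replicate 2.

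Genes of ribosomes and of cell division were called in both directions. Of 32 ribosomal protein genes, 7 were higher, 2 lower and 23 did not pass, or 28.1% called beside 13.7% of all genes. The list's median was 0.26. Beside Rps14, Rpl27 rose by 1.24 ± 0.16 (adjusted p = 0.00964), although its second probe differed by 0.20. Rpl32 rose by 0.87 ± 0.15 (adjusted p = 0.0221) and Rpl37 by 0.83 ± 0.15 (adjusted p = 0.0254), and both were lost with quantile normalization (adjusted p = 0.0559 and 0.102). Rpl4 and Rps4x, the members called lower and named after their values were seen, fell by 0.85 ± 0.19 (adjusted p = 0.038) and 0.75 ± 0.16 (adjusted p = 0.0347). These genes are among the brightest on the arrays, and the median of the list was 0.10 with quantile normalization, beside 0.07 for all genes. The balance of calls turned with the scaling, to 2 higher and 3 lower with quantile normalization and with the authors' deposited values, and to 5 higher and 7 lower after normexp with quantile normalization. Calls higher numbered 7, 9, 2 and 1 without homozygous replicate 1, homozygous replicate 2, heterozygous replicate 1 and heterozygous replicate 2, and calls lower 2, 2, 0 and 0.

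Of 30 cell cycle genes, 6 were higher and 2 lower, or 26.7% called beside 13.7% of all genes, with a median of 0.36. Cdc20, an activator of the anaphase-promoting complex, read 4.00 and 3.84 in the homozygous embryos and 2.96 and 2.91 in the heterozygous embryos and rose by 0.99 ± 0.16 (adjusted p = 0.0172). The thymidylate synthase gene Tyms read -0.71 and -0.60 against -1.59 and -1.62 and rose by 0.95 ± 0.16 (adjusted p = 0.0179), and the mitotic cyclin gene Ccnb2 read 2.76 and 2.60 against 1.67 and 1.84 and rose by 0.92 ± 0.17 (adjusted p = 0.0232). Each pair was tight, with a gap far above the spread. Aurkb, a kinase of chromosome segregation, went the other way, from -0.78 and -0.82 to -2.24 and -3.48, and fell by 2.06 ± 0.39 (adjusted p = 0.0262). Without heterozygous replicate 1 or heterozygous replicate 2, 0 members were called in either direction, while 6 and 9 were higher without homozygous replicate 1 and homozygous replicate 2.

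Genes of limb and face mesenchyme were called in both directions. Of 29 limb and face genes, 2 were higher, 5 lower and 22 did not pass, beside 4.84% and 8.84% of all genes, and 14 of the 29 had a positive difference. Osr1, a zinc finger gene of intermediate mesoderm and limb, read -1.43 and -1.80 in the homozygous embryos and 0.42 and 0.07 in the heterozygous embryos and fell by 1.87 ± 0.21 (adjusted p = 0.00699). Tbx2, a T-box gene of limb and heart, read -1.73 and -2.49 against -0.51 and -0.86 and fell by 1.43 ± 0.29 (adjusted p = 0.0303). Shox2, a homeobox gene needed for proximal limb bones and the sinus node, read -3.77 and -3.77 against -2.67 and -2.92 and fell by 0.98 ± 0.17 (adjusted p = 0.0204). Both homozygous embryos lay below both heterozygous and both wild-type embryos in these genes. Prrx1, a homeobox gene of limb mesenchyme, fell by 1.59 ± 0.21 (adjusted p = 0.00975), but its second probe differed by 0.04 (adjusted p = 0.909). Calls lower numbered 5, 7, 2 and 2 and calls higher 4, 2, 0 and 0 without homozygous replicate 1, homozygous replicate 2, heterozygous replicate 1 and heterozygous replicate 2, and the median, near 0 in the 4 arrays, was 0.16 and -0.21 without the first and second of these.

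Hox genes, which set position along the body axis, had a median of -0.26. Of 38 tested, 1 was higher, 3 lower and 34 did not pass, or 10.5% called beside 13.7% of all genes. Both homozygous embryos lay below both heterozygous embryos in 19 of the 38, beside 28.1% of all genes. Hoxa2, which patterns the second branchial arch, read -2.05 and -2.05 in the homozygous embryos and -1.02 and -0.95 in the heterozygous embryos and fell by 1.06 ± 0.15 (adjusted p = 0.0126). Hoxb5 read -0.31 and -0.64 against 0.35 and 0.27 and fell by 0.79 ± 0.18 (adjusted p = 0.0436), lost without homozygous replicate 2 (adjusted p = 0.0542). Hoxc11 read -5.34 and -6.77 against -4.02 and -4.30 and fell by 1.90 ± 0.46 (adjusted p = 0.0484), with 1 homozygous value not well above background, or by 1.18 without homozygous replicate 2, and it was lost with quantile normalization (adjusted p = 0.0763). Hoxd12, of the distal limb, went the other way at -0.85 and -0.82 against -1.79 and -2.13 and rose by 1.13 ± 0.18 (adjusted p = 0.0172), but its wild-type values, -0.94 and -1.16, lay with the homozygous pair. Calls lower numbered 13, 2, 0 and 0 and calls higher 3, 1, 0 and 0 without homozygous replicate 1, homozygous replicate 2, heterozygous replicate 1 and heterozygous replicate 2, and the median was -0.44 without homozygous replicate 1 and -0.14 without homozygous replicate 2.

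Genes of skeletal tissue were called lower at about the share of all genes. Of 24 cartilage and bone genes, 0 were higher and 2 lower, or 8.33% beside 8.84% of all genes, with a median of -0.27. Col11a2, a chain of the cartilage collagen XI, read -1.11 and -1.31 in the homozygous embryos and 0.47 and 0.11 in the heterozygous embryos and fell by 1.49 ± 0.19 (adjusted p = 0.00967), and Col9a3, of collagen IX, read -2.61 and -2.69 against -1.63 and -1.97 and fell by 0.85 ± 0.18 (adjusted p = 0.0372). Of 30 other matrix genes, 0 were higher and 2 lower, or 6.67%. The laminin gene Lama2 fell by 0.96 ± 0.16 (adjusted p = 0.0197), although its second probe differed by -0.07, and Col5a2, of fibrillar collagen V, read 0.86 and 0.86 against 1.75 and 1.70 and fell by 0.86 ± 0.15 (adjusted p = 0.0214). Without heterozygous replicate 1 no member of these 2 lists was called, and without heterozygous replicate 2 calls lower were 1 for cartilage and bone and 0 for the matrix list, while without homozygous replicate 1 and homozygous replicate 2 cartilage and bone had 4 and 5 lower.

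Muscle genes were called lower at about the share of all genes too. Of 22 cardiac genes, 0 were higher and 2 lower, or 9.09% beside 8.84%. These were the troponin genes, Tnni3 at -1.97 and -2.37 in the homozygous embryos and -0.78 and -0.93 in the heterozygous embryos, a fall of 1.31 ± 0.20 (adjusted p = 0.0142), and Tnnt2 at 0.45 and 0.62 against 1.61 and 1.47, a fall of 1.01 ± 0.17 (adjusted p = 0.018). Of 27 skeletal muscle genes, 1 was higher and 2 lower, which is 11.1% called beside 13.7% of all genes, with a median of -0.21. Myf5, an early regulator of muscle precursors, read -4.59 and -5.89 against -2.85 and -3.24 and fell by 2.19 ± 0.43 (adjusted p = 0.0276), with 1 homozygous value not well above background, and the perinatal myosin gene Myh8 read -0.65 and -0.27 against 1.02 and 0.51 and fell by 1.23 ± 0.24 (adjusted p = 0.0281). Mylpf, a myosin light chain of fast fibres, was dim and rose by 0.84 ± 0.18 (adjusted p = 0.0378), lost with quantile normalization (adjusted p = 0.0547). Both troponins and both muscle genes that fell had separate pairs. Calls lower numbered 5, 2, 0 and 1 for cardiac and 3, 3, 0 and 2 for skeletal muscle genes without homozygous replicate 1, homozygous replicate 2, heterozygous replicate 1 and heterozygous replicate 2.

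**Figure D5:**
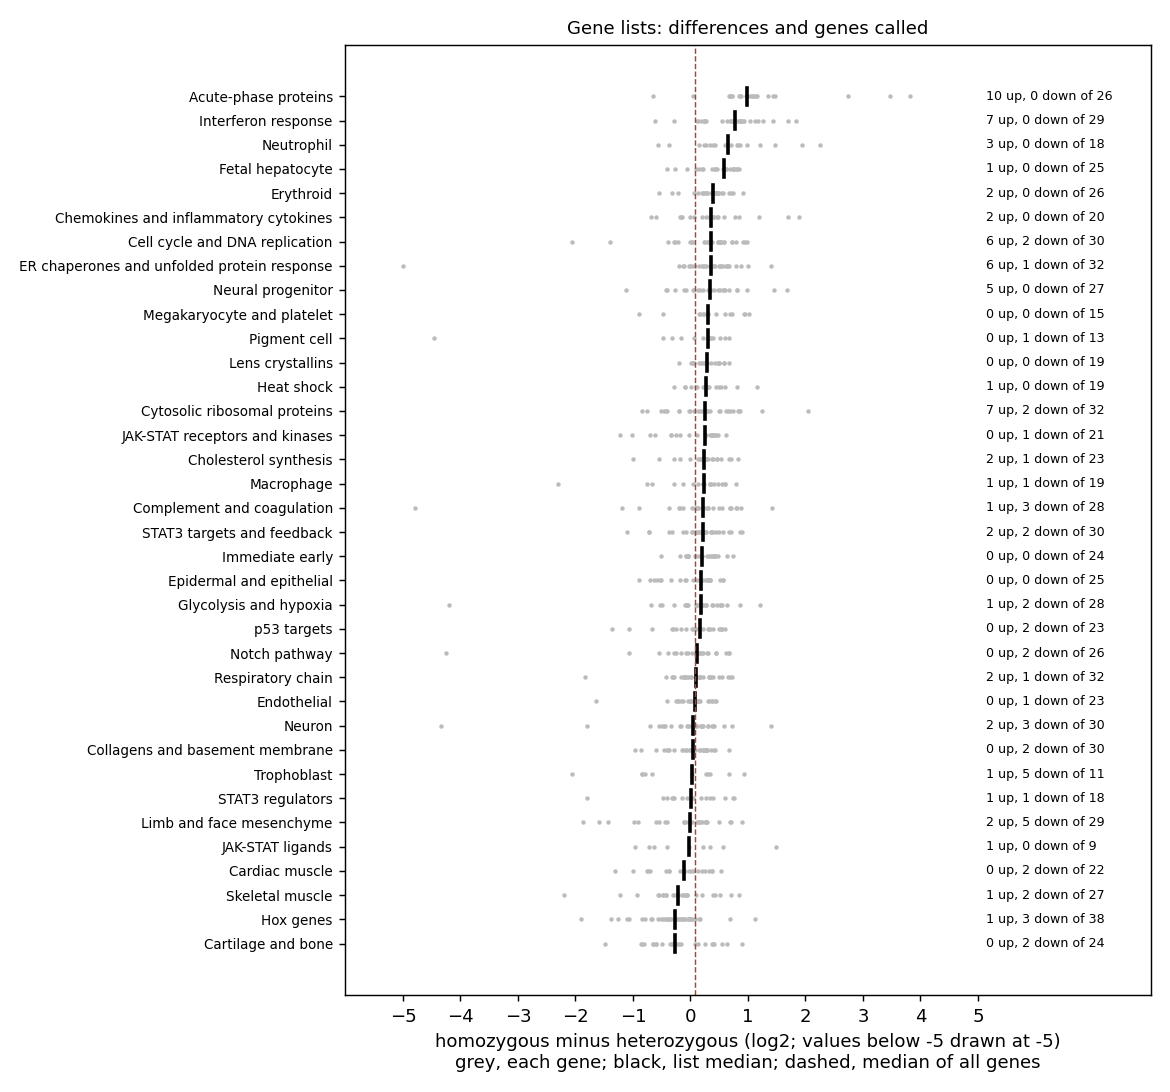
Homozygous minus heterozygous difference (log2, horizontal axis) of every tested member of 36 gene lists, with the list median as a black bar and the median of all genes, 0.08, as a dashed line; counts of members called are at the right. Acute-phase and interferon lists have the highest medians, 0.98 and 0.78, and cartilage and bone the lowest, -0.27.

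Genes of neural progenitors were higher more often than all genes, and none was lower in the main fit. Of 27 tested, 5 were higher and 22 did not pass, or 18.5% higher beside 4.84% of all genes, with a median of 0.33. After normexp with the 75th percentile 11 were higher and 2 lower. With only probes well above background on all 4 arrays, 6 were higher and 1 lower. At the second brightest kept probe, 1 was higher and 1 lower of 5 genes, with a median of -0.35. Neurog1, a proneural factor, read -5.02 and -4.93 in the homozygous embryos and -6.28 and -6.58 in the heterozygous embryos and rose by 1.45 ± 0.18 (adjusted p = 0.00832), or 0.37 (adjusted p = 0.0612) after normexp with quantile normalization. Its relative Neurog2 read -0.25 and 0.22 against -1.03 and -0.95 and rose by 0.98 ± 0.21 (adjusted p = 0.0346), and Lhx2, a homeobox gene of forebrain and eye, read 2.33 and 2.30 against 1.55 and 1.45 and rose by 0.81 ± 0.15 (adjusted p = 0.0264). Gsx2 read -4.38 and -4.22 against -6.18 and -5.79. The heterozygous pairs lay below the homozygous pairs in these 4 genes, but the wild-type values of Gsx2, -6.83 and -5.25, were far apart. Calls higher numbered 6, 7, 2 and 2 without homozygous replicate 1, homozygous replicate 2, heterozygous replicate 1 and heterozygous replicate 2.

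Of 30 neuron genes, 2 were higher and 3 lower, which is 16.7% called beside 13.7% of all genes, with a median of 0.05. Neurod2, a transcription factor of maturing neurons, read -0.51 and -0.69 in the homozygous embryos and -1.87 and -2.14 in the heterozygous embryos and rose by 1.40 ± 0.18 (adjusted p = 0.0091). Beside Chat, the RNA-binding protein gene Elavl3 read 0.52 and -0.17 against 2.22 and 1.71 and fell by 1.79 ± 0.29 (adjusted p = 0.0177), and the synaptic gene Snap25 read -0.56 and -0.68 against 0.10 and 0.08 and fell by 0.71 ± 0.16 (adjusted p = 0.0382). Of 26 Notch pathway genes, 0 were higher and 2 lower, which is 7.69% called. These were Notch1 and its target Hes1, which read -0.83 and -1.09 in the homozygous embryos and 0.20 and 0.02 in the heterozygous embryos and fell by 1.07 ± 0.18 (adjusted p = 0.0184), with wild-type values of -0.21 and 0.02. Calls lower numbered 6, 3, 1 and 2 for neuron and 3, 2, 1 and 1 for Notch genes without homozygous replicate 1, homozygous replicate 2, heterozygous replicate 1 and heterozygous replicate 2.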

How the data were processed

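The authors scanned each array into intensity values with flags for every spot, using Agilent Feature Extraction 11.0.1.1 with background subtraction, per the file headers. Their deposited log2 table has a median of 6.72 on every array, and its normalization is not given in the sources used here. Here, log2 processed signal of the 43020 gene spots was taken minus each array's 75th percentile, outlier spots were left out and spots of a probe averaged. Probes were kept if both arrays of either genotype were well above background (29558 of 39429), and a gene was its brightest kept probe. Symbols came from RefSeq accessions, used for names only (27234 probes, 69.1%).

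The 4 arrays were fitted with limma 3.58.1 in R 4.3.3 (lmFit, eBayes; 2 residual and 3.80 prior degrees of freedom), with Benjamini-Hochberg adjustment over all genes. Values set in parentheses as adjusted p are from this test. Slide could not enter the model. On simulated data in which 200 of 24040 genes changed, the fit recovered 0% of 1.5-fold, 0% of 2-fold and 57.6% of 4-fold changes. Far fewer genes changed there than the 3293 called in the data. The adjusted p depends on that share, so these rates do not describe the fit of the data. Named genes included the 10 largest called differences in each direction among genes well above background on all 4 arrays. They also included the 5 largest called differences in each direction that are bounds. In both sets, both homozygous arrays had to lie beyond both heterozygous arrays. The 6 largest in each direction with every probe called, Stat3, and up to 4 members of each list with the smallest p were added. Apart from list members and Stat3, genes without a symbol were passed over. So were clone, predicted or numbered loci and olfactory or vomeronasal receptors. Further names are marked as chosen after their values were seen. One gene taken by this rule is not reported here. Members and lists were chosen with earlier results of these data known. Alternatives were the background correction, normalization, filter, probe choice, outlier spots, all 6 arrays, a replicate block and leaving out each array. Protein sequences were not used here. Intensities are linear before the log2 step, and dim signals carry more error.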

Additional observations from a re-analysis of the deposited data

How the results depend on the processing

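Of 3293 genes called, 1165 higher and 2128 lower, the counts stayed within 1.5 times with normexp and quantile normalization, quantile normalization, the median, the deposited values, outlier spots kept and only probes well above background on all 4 arrays. They moved in the following settings. Normexp with the 75th percentile called 8170, 5851 of them higher, with 2319 lower. No filter on dim probes called 1871, 1054 of them lower. The second brightest kept probe called 406, 62 higher and 344 lower, of 4572 genes. All 6 arrays in 1 fit called 5890, 2669 higher and 3221 lower. Leaving out 1 array in turn called 922 to 6116 genes, 214 to 2642 higher and 708 to 3474 lower. The cause of these shifts was not tested, apart from the fewer genes and fewer arrays that some settings hold.

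The replicate block, which pairs arrays of the same number, called 5514 genes, 2356 higher. Deviations of the same-numbered arrays correlated at 0.261 with only 2 pairs, and the labels do not tie the numbers to litters, so the numbers are not taken to pair the embryos. Stat3 stayed uncalled in every setting run, at 0.15 to 0.44.

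The second probe gave the opposite sign for Zfp422 (-0.23), F10 (0.41), Trpm1 (0.47), Llph (0.21), F5 (0.56), Prrx1 (0.037) and Plvap (0.36). Normexp with the 75th percentile did so for Fam240b (0.14), Foxe3 (0.19), Hapln2 (0.20), Junb (0.40) and Saa2 (0.14). Of the 123 genes tracked, 72 lost the call without heterozygous replicate 1, 66 without heterozygous replicate 2, 67 with no filter on dim probes and 26 after normexp with quantile normalization. These 123 include Serpina3n, Apcs, Saa2, Socs3 and Isg15, which were not called in the main fit and so had no call to lose. Dim genes rest on signals near background.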

Other observations

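Markers of the placenta were called at 6 of 11 genes tested, 1 higher and 5 lower, with a median of 0.02, or 54.5% called beside 13.7% of all genes, but 3 were higher and 1 lower after normexp with the 75th percentile and 0 in either direction with no filter on dim probes. Gcm1, a transcription factor of the labyrinth trophoblast, was bright at 4.08 and 2.97 in the homozygous embryos and 5.85 and 5.34 in the heterozygous embryos and fell by 2.07 ± 0.39 (adjusted p = 0.0254), and 1 of its other 2 probes was also lower (-2.99). Psg17, a pregnancy-specific glycoprotein, fell by 0.84 ± 0.16 (adjusted p = 0.0261) and Peg10, an imprinted gene of retrotransposon origin, by 0.80 ± 0.16 (adjusted p = 0.0316), while Ascl2, a trophoblast progenitor factor, rose by 0.93 ± 0.16 (adjusted p = 0.0208). The falls of Psg17 and Peg10 were lost after normexp with the 75th percentile (-0.08 and -0.34). Calls lower numbered 5, 4, 0 and 1 without homozygous replicate 1, homozygous replicate 2, heterozygous replicate 1 and heterozygous replicate 2. How much placental tissue came with each embryo was not tested.

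Genes of energy and lipid metabolism were called no more often than all genes, of which 13.7% were called. The shares were 9.38% of 32 respiratory chain, 10.7% of 28 glycolysis and 13% of 23 cholesterol synthesis genes. Atp5o, a stalk subunit of ATP synthase, read 1.84 and 1.55 against 3.58 and 3.46 in homozygous against heterozygous embryos and fell by 1.83 ± 0.18 (adjusted p = 0.00501), while Sdhc, of succinate dehydrogenase, rose by 0.72 ± 0.17 (adjusted p = 0.0436). Slc16a1, a lactate transporter, rose by 1.21 ± 0.19 (adjusted p = 0.0152), opposite to its relative Slc16a7, and Pdk1, which restrains pyruvate use, fell by 0.69 ± 0.16 (adjusted p = 0.0443). Fdps, an early enzyme of cholesterol synthesis, read 2.41 and 2.00 against 3.20 and 3.20 and fell by 1.00 ± 0.19 (adjusted p = 0.0276), whereas the later enzymes Dhcr7 and Msmo1 rose by 0.82 ± 0.18 (adjusted p = 0.0393) and 0.70 ± 0.16 (adjusted p = 0.0435). Among p53 targets 0 of 23 were higher and 2 lower, Gadd45a by -1.37 and Rrm2b by -1.06, or 8.7% called beside 13.7% of all genes, and 5 higher and 1 lower after normexp with the 75th percentile. The endothelial gene Plvap fell by 1.63 ± 0.35 (adjusted p = 0.0347) at 1 probe, in a list called at 4.35%. The red cell genes Hba-a2 and Ank1 rose by 0.70 ± 0.16 (adjusted p = 0.0395) and 0.92 ± 0.21 (adjusted p = 0.0441). Their list was called at 7.69%, and Hba-a2 rose by only 0.28, without a call, with quantile normalization. Without heterozygous replicate 1 or heterozygous replicate 2, the respiratory chain, glycolysis, cholesterol synthesis, p53, endothelial and red cell lists each had 0 or 1 member called in each direction.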
